A study of Arabidopsis thaliana with 12 samples.

Results

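Alternative exons whose length is not a multiple of 3 were followed in germinated seeds of the model plant Arabidopsis thaliana, with RNA taken from the whole seedlings. The 726 exons, in 653 genes, were chosen by 3 criteria applied to the deposited splicing table: a length not divisible by 3, at least 10 reads in each of 12 libraries, and a mean inclusion from 2 to 98%. The table lists 92538 exon events, of which 51803 have such a length and 43222 of those also have enough reads. Of these, 911 were included in under 2% of transcripts on average and 41585 in over 98%, which leaves the 726. Inclusion is given as PSI, the percent spliced in: out of the reads that tell both versions apart, the percent that come from the version with the exon. The choice used read numbers and the mean PSI over all libraries, so the levels are a description, while the differences between groups were not used to choose the exons.

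Plants were Col-0, taken as wild type (WT), or sr34a-1, a mutant of SR34A (AT3G49430), which encodes a serine/arginine-rich (SR) splicing factor. Stratified seeds of both grew for 44 h in continuous light. A mock treatment or abscisic acid (ABA, 0.5 µM), the plant hormone of dormancy and drought, followed for 2 h. Genotype and treatment make 4 groups, each with 3 libraries of polyadenylated RNA. The labels call them biological replicates without naming separate cultures. The labels give 1 mutant line and no complemented line among these libraries, so an effect of the allele cannot be told apart from another difference of that line.

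An exon that is not a multiple of 3 moves the reading frame of everything behind it when it is added or left out. In most such cases the ribosome soon meets a stop codon, and plant transcripts with a stop well upstream of their last exon junction are typical substrates of nonsense-mediated decay (NMD), the pathway that degrades messages with early stops. An exon that brings in a stop is often called a poison exon, and the genes of SR proteins are the classical plant examples. SR proteins bind exons and help the spliceosome to recognise their splice sites.

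Sequences are shown for some of the exons that differed between genotypes in both treatments or were among the largest rises or falls in 1 of them, because the frame shift can be read from them. Exons outside the coding sequence, exons whose frame could not be read and exons over 300 nt were not chosen for this. Each runs 5′ to 3′ from the TAIR10.1 genome (RefSeq), with the intron bases next to the exon in capitals at the ends. In the first 4, the exon is absent from the longest coding form. Their sequence is printed only as far as the first in-frame stop codon that the added exon brings, in capitals. Among them, the 59-nt exon of AT4G02120 was mostly included in these libraries, although the form used to read its stop lacks it. Each frame was read in the longest coding form chosen for that exon, so the lines of AT4G02120 need not share a form. In the next 5, the longest coding form has the exon and the whole exon is printed. The last is the coding part of an exon that ends the protein, with its stop codon in capitals.
SR34 (chr1:628777-628798, plus strand): AGatatggatttacatacgacTAG
HSFA2 (chr2:11136246-11136260, plus strand): AGatgggtttcctaTGA
AT4G02120 (chr4:942485-942535, plus strand): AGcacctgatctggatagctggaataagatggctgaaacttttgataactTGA
AT5G25520 (chr5:8888098-8888157, plus strand): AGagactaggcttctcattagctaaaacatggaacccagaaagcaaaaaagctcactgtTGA
AT4G02120 (chr4:942340-942386, plus strand): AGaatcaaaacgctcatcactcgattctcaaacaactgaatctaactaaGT
AT2G06025 (chr2:2350897-2350933, plus strand): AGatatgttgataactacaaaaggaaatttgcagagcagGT
AT5G12240 (chr5:3959632-3959672, minus strand): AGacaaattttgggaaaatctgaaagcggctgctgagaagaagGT
AT1G69020 (chr1:25946291-25946342, minus strand): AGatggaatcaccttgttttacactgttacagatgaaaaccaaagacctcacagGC
LIG6 (chr1:24889194-24889291, plus strand): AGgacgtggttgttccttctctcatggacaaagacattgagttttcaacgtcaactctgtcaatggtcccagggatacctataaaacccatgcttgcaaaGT
AT5G05550 (chr5:1639529-1639551, minus strand): AGtggtctggcaaggaaaagtcTAG

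The exons are short. Their median length was 68 nt, with quartiles of 47 and 101 nt, and the range ran from 5 nt in AT3G01850, which encodes an aldolase-type barrel protein, to 1928 nt in RF4. Lengths of 1 and of 2 more than a multiple of 3 were about equally frequent, with 353 and 373 exons. In all, 66 exons were at most 30 nt long. All 726 had AG before them in the genome, and 708 had GT and 15 had GC behind them. By the RefSeq annotation, 515 (70.9%) lay between the first and the last coding base, 122 lay 5′ of the coding sequence, 15 lay 3′ of it and 35 spanned one of its ends, while 36 were in genes without a coding transcript and 3 in genes not in that annotation. Frame-keeping alternative exons, the 389 exons that met the same read and PSI limits with a length divisible by 3, were placed alike, with 70.7% between the coding ends and a median length of 66 nt.

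Most of the frame-shifting exons were either nearly always or rarely included, in the form that the annotation would give as coding. For each exon the longest annotated coding transcript that has it or splices across it was taken as the longest coding form. In 355 exons this form has the exon, and their median of mean PSI was 93.4%, with 259 of them over 80%. In 230 exons it skips the exon, and the median was 7.7%, with 161 under 20%. In the remaining 141, no annotated coding transcript has the exon with these ends as an internal exon or joins its listed flanks across it. Their median was 94.1%, with 98 of them over 80%. Over all 726 exons, 375 had a mean PSI over 80%, 217 were under 20% and 134 lay between. The rule's limits of 2 and 98% bound these values, and the pattern was alike in frame-keeping exons, with medians of 91.9% and 10.6%.

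**Figure D1:**
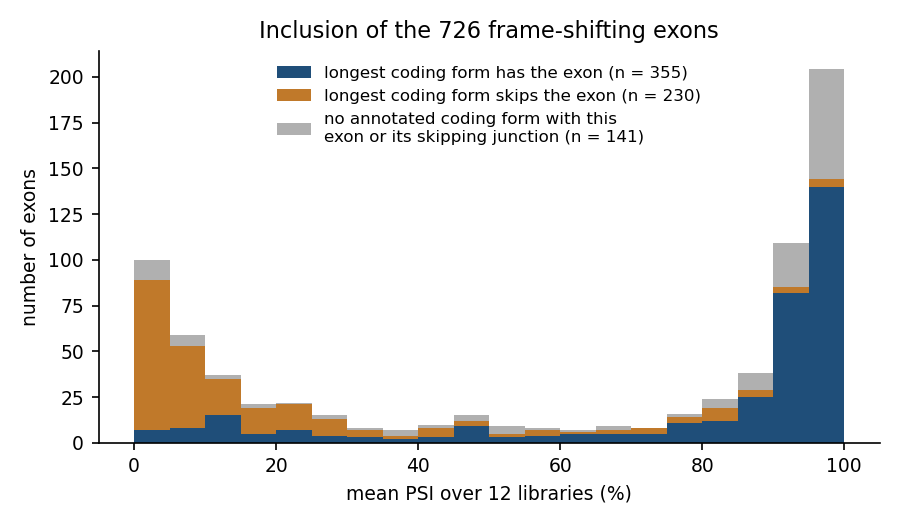
Number of frame-shifting exons (y axis) by mean PSI over the 12 libraries (x axis, percent, bins of 5 points). Bars are stacked by whether the longest annotated coding form has the exon (n = 355) or skips it (n = 230). In the remaining class, no annotated coding transcript has it with these ends as an internal exon or joins its listed flanks (n = 141). Exons of the longest coding form pile up at the right and exons absent from it at the left.

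The annotation holds both versions for few of these exons. For 144 (19.8%) both the exon and its skipping junction were annotated, for 256 only the exon, for 213 only the junction, and for 113 neither. The splice sites scored lower than those of constant exons. Against position weights from 74570 exon events with a mean PSI over 98%, the median score of the donor site (9 bases, 6 of them in the intron) was 6.06 bits for frame-shifting exons, 5.89 for frame-keeping exons and 7.25 for the constant exons. For the acceptor site (15 bases, 13 of them in the intron) the medians were 6.33, 6.7 and 7.81 bits. These scores describe sequence only.

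The effect of each exon on the reading frame was read from the genome where the 5′ end of the exon lies in the coding part of the longest coding form or of its altered version. This was possible for 424 exons. A stop was counted as early when the altered protein was shorter and the stop lay more than 50 nt upstream of the last exon junction. Removing the exon from a coding form that has it gave an early stop in 224 of 267 cases (83.9%), and adding it to a form that skips it did so in 134 of 157 (85.4%). None of the 424 returned to the original stop codon. In 103 exons the first stop lay inside the added exon itself. The median early-stop protein kept 35.4% of the residues. A frame shift is what the length criterion selects, so the contrast with frame-keeping exons on removal, 3 early stops of 148, follows from the rule. On addition, frame-keeping exons gave early stops in 54 of 78 cases (69.2%), 53 with the stop inside the exon, so an in-frame length did not keep most added exons open.

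**Figure D2:**
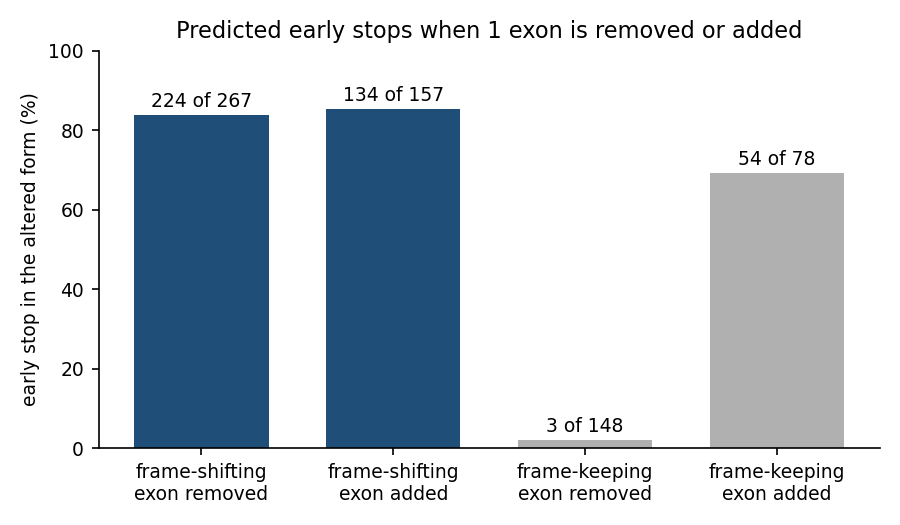
Percent of readable exons (y axis) for which removing the exon from the longest coding form, or adding it to that form, gave an early stop, with the number of early stops and of exons above each bar. Early stops were predicted from the genome, not measured, and frame-shifting exons reached 83.9% and 85.4%.

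Replicate libraries gave close values. The median SD of PSI within a group was 2.39 points in WT mock, 2.44 in sr34a-1 mock, 2.58 in WT ABA and 2.76 in sr34a-1 ABA (n = 3 libraries each), and the range of an exon over the 12 libraries had a median of 11.7 points and a largest value of 75.9. Library medians of PSI over the exons lay between 78.3 and 83.0%. The median exon had 135.5 to 179.0 reads per library, and total gene counts were 61128187 to 83268758. On the first principal component of the exons' log-scaled PSI, with 18.9% of the variance, all 6 WT libraries lay from 8.31 to 15.3 and all 6 sr34a-1 libraries from -17.3 to -6.16. WT libraries of both treatments overlapped on it, while sr34a-1 mock lay above sr34a-1 ABA. The second component (11.0%) set some replicates apart. With ABA, the third library lay at -19.8 in WT and -13.55 in sr34a-1, and the others from 4.53 to 9.35. In WT mock, the first library lay at 11.52 and the others at -1.75 and -2.06. SR34A itself checked the labels, which fell from 96.2 ± 4.30 to 13.2 ± 0.712 CPM (counts scaled to a common library total) in mock and from 93.4 ± 3.47 to 12.7 ± 1.28 CPM with ABA (SD, n = 3 each).

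The libraries of the genotypes also differed in markers of the seedling stage. All 10 marker genes examined were expressed in every group. The 3 genes of seed reserve proteins (CRA1, CRC and OLEO1) summed to 87.8 to 131 CPM in WT mock and 203.3 to 282.5 in sr34a-1 mock, and to 209.5 to 303.9 in WT ABA and 455.8 to 688.5 in sr34a-1 ABA. The 3 genes of reserve mobilisation (ICL, MLS and PCKA) summed to 12340 to 14790 CPM in WT mock and 16510 to 19090 in sr34a-1 mock, and to 14290 to 15850 and 18090 to 19780 with ABA. The 3 greening genes (RBCS-1A, LHCB1.3 and DRT112) summed to 8015 to 8876 and 5436 to 6408 CPM in the mock groups and to 8269 to 9748 and 5914 to 6258 with ABA. The growth marker EXPA2 ran from 19.7 to 22.2 CPM in WT mock and from 49.5 to 51.2 in sr34a-1 mock, and from 14.6 to 19.1 and 33.1 to 34.9 with ABA. These sums did not overlap between genotypes within a treatment. Among the single genes, MLS overlapped with ABA, at 2870 to 3215 CPM in WT and 3198 to 3566 in sr34a-1 (adjusted p 0.139 in edgeR). Of all genes tested, 16.4% differed between genotypes in mock and 22.1% with ABA (edgeR, adjusted p under 0.05). The part of these markers in the splicing differences was not tested. In RNA of whole germinated seeds, a change within cells cannot be told apart from a change in the mix of cells.

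The genotypes were first compared in each treatment, to ask which frame-shifting exons depend on SR34A without and with ABA. The test was limma on log2 inclusion odds from the reads, fitted to 28000 splicing events of all types, with Benjamini-Hochberg adjustment over all of them and a threshold of 0.05. Without ABA, 22 of the 726 exons (3.03%) passed, 7 higher and 15 lower in sr34a-1, beside 0.529% of all events. With ABA, 40 (5.51%) passed, 20 higher and 20 lower, beside 0.793%. Averaged over both treatments, 104 exons (14.3%) in 99 genes passed, 57 higher and 47 lower, beside 2.19%. Frame-keeping exons had similar shares, with 18 (4.63%), 26 (6.68%) and 54 (13.9%) of 389, and of the tested events of other types 0.402%, 0.58% and 1.7% passed. The share above the background was thus seen in alternative exons with and without a frame shift, and the difference between these kinds was not tested. Over all 726 exons the median difference was 0.52 PSI points in mock and 0.57 with ABA.

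**Figure D3:**
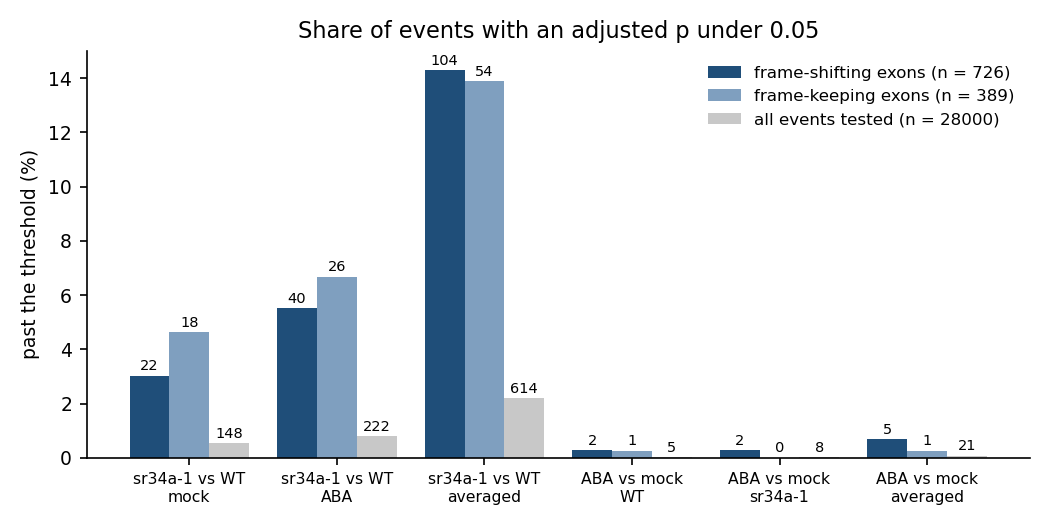
Percent of events past an adjusted p of 0.05 in limma (y axis) in each comparison (x axis) for frame-shifting exons (n = 726), frame-keeping exons (n = 389) and all 28000 events tested, with the number of events above each bar. The genotype comparisons stand above the ABA comparisons for both kinds of exon.

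The differences in the 2 treatments can be set side by side, since they share no library. Their tests are not independent, because both use the 1 spread estimated from all 12 libraries. Of the 22 exons that passed in mock and the 40 that passed with ABA, 10 passed in both, all in the same direction, which is 45.5% of the first list and 10 of 40 in the second. All 22 had a difference of the same sign with ABA, and 38 of the 40 had the same sign in mock. The exceptions lay close to 0 in mock: AT3G22430 differed by 1.49 points in mock and -10.9 with ABA, and HEXO1, a beta-hexosaminidase that trims sugar chains, by -0.82 and 3.47. The interaction of genotype and ABA passed for 0 exons, as for 0 of all events (0% called), with 73 exons at an unadjusted p under 0.05 and a smallest adjusted p of 0.979 in limma. An exon past the threshold in 1 treatment is therefore not shown to differ between treatments.

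**Figure D4:**
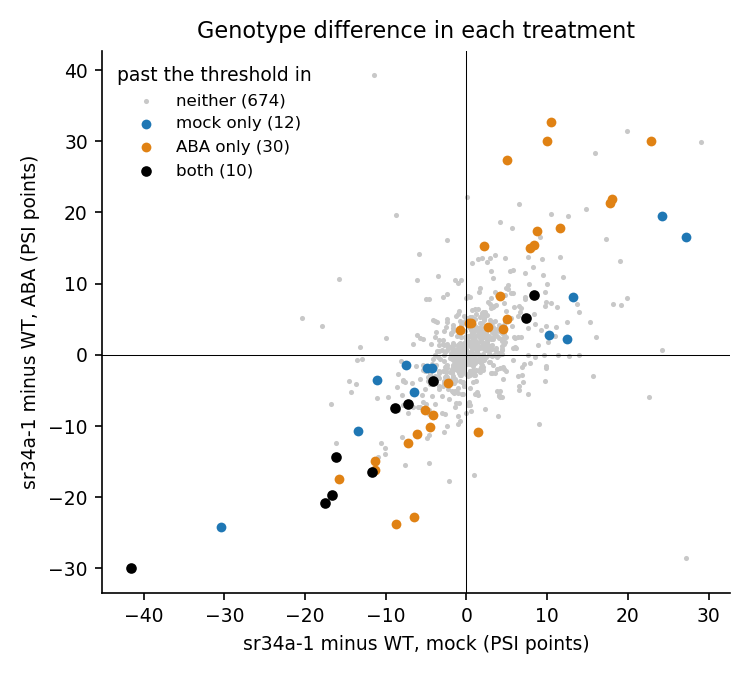
Difference of mean PSI between sr34a-1 and WT in mock (x axis) and with ABA (y axis), in PSI points, for 726 frame-shifting exons, coloured by the treatment in which they passed the threshold. The 10 exons past it in both lie at the lower left and the upper right, with AT5G05550 at the far lower left.

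The largest fall was in the 98-nt exon of AT5G05550 (chr5:1639454-1639551, minus strand), a gene annotated as a DNA-binding transcription factor. Its PSI was 43.3, 53.6 and 55.2% in WT mock and 11.4, 5.47 and 10.6% in sr34a-1 mock. With ABA it was 45.5, 40.2 and 41.1% in WT against 17.2, 8.91 and 10.8% in sr34a-1. Both pairs of groups were far apart. The means fell from 50.7 ± 6.47 to 9.15 ± 3.21% in mock and from 42.2 ± 2.83 to 12.3 ± 4.33% with ABA (SD, n = 3 each). The log2 odds of inclusion fell by 3.40 (SE 0.29, adjusted p 2.28e-09 in limma) and by 2.43 (SE 0.29, adjusted p 3.91e-06 in limma). The form that has it reads through 23 of its bases to the TAG shown above and makes 249 residues, and the form without it makes 246, so the choice swaps the end of the protein. The gene's RNA was slightly lower in sr34a-1, by 0.16 on the log2 scale (edgeR, adjusted p 0.005).

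A pair of exons of AT4G02120, which encodes a CTP synthase, an enzyme that makes the nucleotide CTP, fell in both treatments. The 59-nt exon was at 93.6, 93.4 and 94.8% in WT mock and 81.0, 72.9 and 75.3% in sr34a-1 mock. With ABA it was at 90.8, 94.8 and 89.2% in WT against 70.4, 71.4 and 70.5% in sr34a-1, and its log2 odds were lower by 2.20 in each treatment (adjusted p 0.000709 and 0.000527 in limma). The 47-nt exon upstream of it fell from 93.7 ± 1.44 to 82.0 ± 3.79% in mock and from 92.0 ± 2.20 to 75.5 ± 2.66% with ABA (SD, n = 3 each; adjusted p 0.00632 and 0.00124 in limma). The longest coding form used for the 59-nt exon skips it, although it was mostly included. Both lie between the same flanking exon ends, so the skipping reads are shared and the values are not independent: exclusion reads were 18.6, 37.4 and 38.2 for the 47-nt exon and 18.1, 36.3 and 36.8 for the 59-nt exon in the sr34a-1 mock libraries. Such sharing touched 26 of the 726 exons, in 11 genes. Taking the 47-nt exon out of the form of 578 residues leaves 263 before an early stop. The mock call of the 47-nt exon was lost without the second WT or the second sr34a-1 library.

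CPSF73-I, a subunit of the complex that cuts pre-mRNA before the poly(A) tail is added, has a 40-nt exon 3′ of its coding sequence (chr1:22474630-22474669, minus strand). Its PSI was 17.0, 24.8 and 14.9% in WT mock and 2.04, 2.15 and 2.54% in sr34a-1 mock. In ABA-treated plants it was 25.7, 28.8 and 29.7% in WT against 5.26, 11.8 and 8.15% in sr34a-1. The groups did not overlap, and the log2 odds fell by 3.05 in mock (SE 0.52, adjusted p 0.0012 in limma) and by 2.06 with ABA (SE 0.52, adjusted p 0.0483 in limma). The exon lies outside the coding sequence. Leaving out any ABA library other than the second of sr34a-1 ended the ABA call (largest adjusted p 0.173).

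Poison exons moved in both directions. In SR34, a close relative of SR34A, the 80-nt exon (chr1:628777-628856) was at 5.54, 6.36 and 5.70% in WT mock and at 1.46, 2.07 and 1.52% in sr34a-1 mock. The ABA values were 4.67, 5.34 and 5.68% in WT against 1.39, 1.65 and 1.67% in sr34a-1. The groups stood apart in both treatments, on 1862 to 2815 reads per library, and the log2 odds fell by 1.87 (SE 0.20, adjusted p 4.49e-07 in limma) and by 1.78 (SE 0.20, adjusted p 1.92e-06 in limma). Adding this exon cuts the protein from 303 to 272 residues with a stop inside the exon. The gene's RNA was higher in sr34a-1, by 0.25 on the log2 scale (edgeR, adjusted p 8.85e-06), with mock means of 120 CPM in WT and 140 CPM in the mutant.

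The 151-nt poison exon of AT5G25520, which encodes a protein with a SPOC domain and a transcription elongation factor motif, also fell. It was at 34.1, 36.3 and 30.5% in WT mock and at 15.9, 17.3 and 19.3% in sr34a-1 mock, and at 33.3, 27.1 and 34.0% and 18.1, 15.6 and 17.7% with ABA. The log2 odds fell by 1.25 and by 1.14 (SE 0.23 each, adjusted p 0.00227 and 0.00564 in limma). This is 1 of 108 exons for which the table also lists a pair of ends with a length divisible by 3, and the PSI covers all listed ends. The same holds for the exons described here in AT1G69020 (52 nt), AT3G19330 (50 nt), OTLD1 (619 nt), AT1G10095 (86 nt), MCA2 (23 nt), PCMP-E75 (113 nt) and LPP3 (58 nt). It also holds for those in AT3G53270 (101 nt), ELF3 (35 nt), JMJD5 (55 nt), PRP39 (44 nt), AT1G11170 (25 nt) and RF4 (1928 nt).

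The 31-nt poison exon of HSFA2, the heat-stress transcription factor, rose. It was at 52.0, 37.0 and 37.3% in WT mock and at 70.4, 75.6 and 61.9% in sr34a-1 mock, without overlap. ABA-treated libraries were at 49.3, 45.3 and 35.0% in WT against 59.8, 55.7 and 63.9% in sr34a-1, again without overlap. The log2 odds rose by 1.65 in mock (SE 0.32, adjusted p 0.00539 in limma), and the difference of 0.96 with ABA did not pass (SE 0.32, adjusted p 0.183). Averaged over treatments it passed with 1.31 (SE 0.23, adjusted p 0.000382). The mock call was lost without replicate 2 or 3 of WT or replicate 2 of sr34a-1 (largest adjusted p 0.0837), and the averaged call was not lost without any single library. The included form ends after 107 of 345 residues. The gene was lowly expressed, at 6.10 and 11.6 CPM in the mock groups, and its RNA did not pass the gene test (adjusted p 0.114 in edgeR).

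SR34A's own 224-nt exon, 5′ of its coding sequence, was at 7.16, 10.6 and 10.2% in WT mock and at 0.21, 0.58 and 0.44% in sr34a-1 mock. With ABA it was at 6.51, 8.45 and 8.77% in WT against 0, 1.12 and 0% in sr34a-1. The log2 odds fell by 4.08 and by 4.23 (SE 0.83 each, adjusted p 0.00864 and 0.00501 in limma). The exon belongs to the mutated gene, so an effect of the protein cannot be told apart from one of the mutation itself. The mock call was lost without replicate 2 or 3 of WT or replicate 1 of sr34a-1 (largest adjusted p 0.072).

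The remaining exons that passed in both treatments are 3. The 65-nt exon of AT4G34265, a gene of uncharacterized function, fell from 25.8 ± 1.30 to 18.6 ± 1.48% in mock and from 26.6 ± 1.90 to 19.6 ± 0.758% with ABA (SD, n = 3 each; adjusted p 0.0223 and 0.0317 in limma). The 41-nt exon of AT5G12240, annotated as an octanoyltransferase, rose from 87.5 ± 1.22 to 95.9 ± 1.13% and from 87.4 ± 2.60 to 95.9 ± 0.815% (SD, n = 3 each; adjusted p 3.19e-05 and 3.7e-05 in limma). The 37-nt exon of AT2G06025, an acyl-CoA N-acyltransferase gene, rose from 84.8 ± 2.96 to 92.2 ± 0.70% and from 89.1 ± 1.13 to 94.3 ± 1.20% (SD, n = 3 each; adjusted p 0.0171 and 0.0192 in limma). Skipping of this exon cuts the acyltransferase from 288 to 143 residues, and skipping of the AT5G12240 exon cuts that protein from 114 to 67 residues with a stop 46 nt before the last junction, inside the 50-nt limit. An 83-nt exon 5′ of the coding sequence of AT2G06025 rose as well, from 14.1 ± 6.31 to 38.3 ± 5.63% in mock (SD, n = 3 each; adjusted p 0.0454 in limma). Of these mock calls, that of the 37-nt exon was lost without replicate 1 or 2 of WT or replicate 2 or 3 of sr34a-1, and that of the 83-nt exon without any library but the first of WT.

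**Figure D5:**
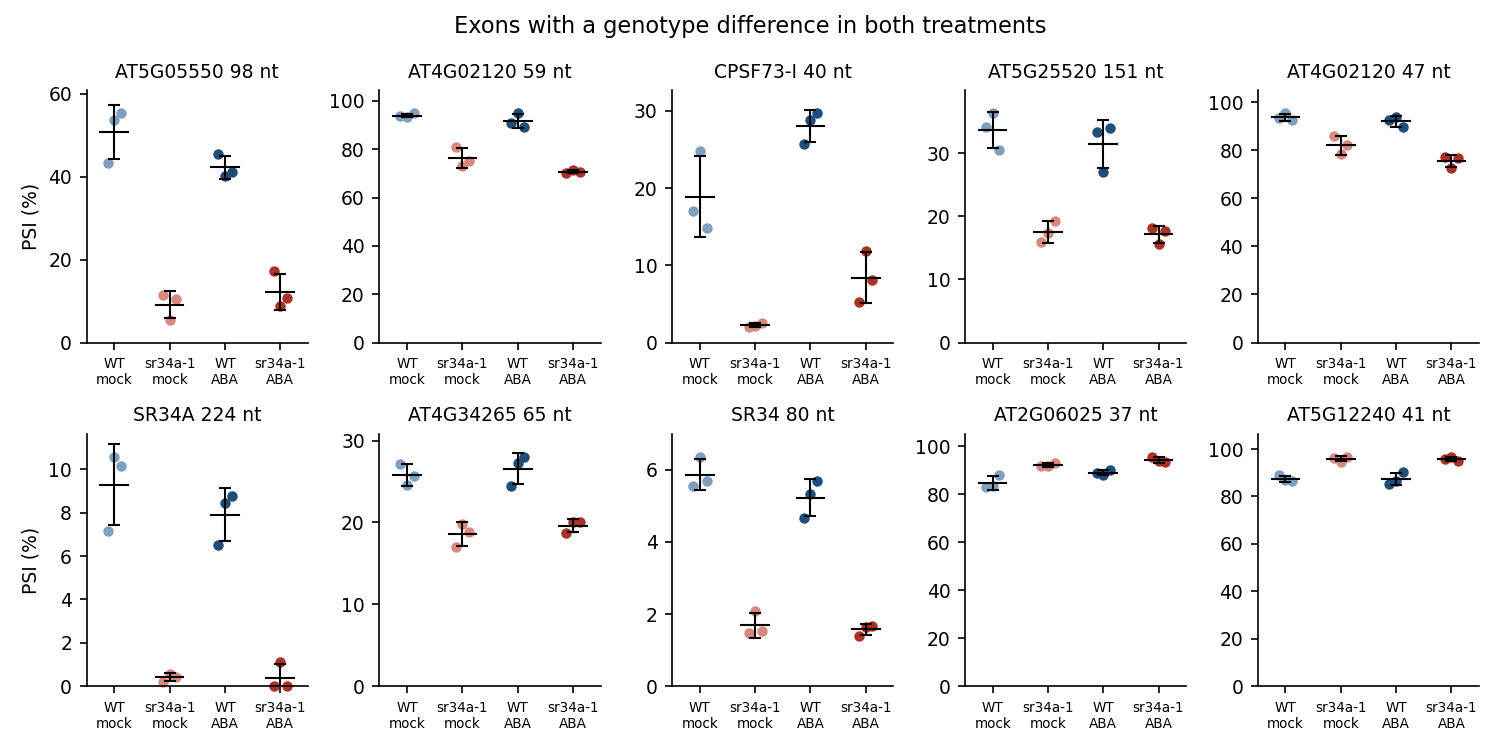
PSI in percent (y axis, from 0, with a scale of its own in each panel) of the 10 exons that passed the genotype comparison in both treatments. Points are libraries, horizontal lines are means and error bars are SD (n = 3), and in each panel the WT and sr34a-1 libraries of a treatment do not overlap.

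Among exons that passed in mock alone, the largest fall was in AT1G69020, a prolyl oligopeptidase family gene, whose 52-nt exon was at 94.1, 100 and 95.9% in WT mock and 60.9, 64.1 and 73.7% in sr34a-1 mock (adjusted p 0.0083 in limma). With ABA it was at 71.4, 92.7 and 70.2% in WT against 52.1, 47.5 and 62.3% in sr34a-1, a difference that did not pass (adjusted p 0.389). It rests on 32 to 56 reads per library, and the mock call was lost without the first or second sr34a-1 library (largest adjusted p 0.061). UBA1A, an RNA-binding protein gene, fell from 93.9 ± 1.02 to 80.5 ± 4.63% at a 71-nt exon, and VAD1, a GRAM domain gene, from 89.7 ± 1.60 to 78.6 ± 4.60% at a 62-nt exon (SD, n = 3 each; adjusted p 0.0083 and 0.0183 in limma). Rises were seen in the 67-nt exon of AT5G51620, from 65.6 ± 2.56 to 78.8 ± 2.53%, the 50-nt exon of AT3G19330, from 87.0 ± 6.86 to 99.5 ± 0.93%, and the 619-nt exon of OTLD1, a histone deubiquitinase gene, from 71.2 ± 2.17 to 81.5 ± 1.44% (SD, n = 3 each; adjusted p 0.00216, 0.0365 and 0.0199 in limma). Of these 5, the AT5G51620 exon alone passed without any single library. Over the 22 exons, the absolute difference ran from 4.18 to 41.6 points with a median of 11.4, and in all 22 the groups did not overlap, as in 173 of all 726 exons in mock.

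Among those that passed with ABA alone, the largest rise was in AT1G10095, a prenyltransferase family gene. Its 86-nt exon was at 45.9, 45.8 and 56.0% in WT ABA and 84.7, 76.8 and 84.5% in sr34a-1 ABA (adjusted p 0.000809 in limma). LIG6, a DNA ligase known for its part in seed longevity, had its 98-nt exon at 64.4, 64.1 and 66.7% in WT ABA and 92.3, 98.4 and 94.6% in sr34a-1 ABA (adjusted p 1.29e-05 in limma). In mock the LIG6 exon was at 62.1 ± 2.40% in WT and 85.0 ± 1.37% in sr34a-1 (SD, n = 3 each), a difference of 22.9 points without overlap that missed the threshold (adjusted p 0.0644). Skipping it cuts LIG6 from 1396 to 986 residues with an early stop.

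The other large rises in ABA-treated sr34a-1 against WT were in RPP4, an immune receptor against downy mildew, with a 1078-nt exon (40.4 ± 7.28 to 70.4 ± 8.18%), MCA2 with a 23-nt exon (63.4 ± 7.34 to 90.7 ± 1.86%), the MAP kinase gene MPK18 with a 43-nt exon (35.3 ± 4.96 to 57.3 ± 6.82%), AT4G27610 with a 79-nt exon (29.9 ± 9.96 to 51.2 ± 2.60%), TRM20 with a 70-nt exon (32.8 ± 1.38 to 50.7 ± 5.15%) and AT1G08910 with a 52-nt exon (79.6 ± 9.84 to 97.1 ± 3.65%; SD, n = 3 each). Their adjusted p-values in limma were 0.00851, 0.0451, 0.0097, 0.0269, 0.00153 and 0.0144. Lower inclusion in ABA-treated sr34a-1 was found in the RNA-binding protein gene UBA2B with a 34-nt exon 3′ of the coding sequence (43.4 ± 2.73 to 19.7 ± 8.29%), PCMP-E75, a pentatricopeptide repeat gene, with a 113-nt exon (84.3 ± 8.28 to 61.5 ± 8.66%), AT5G06770, a KH and zinc finger gene, with a 61-nt exon (54.8 ± 5.38 to 37.3 ± 8.92%) and BGLU9, a beta-glucosidase gene, with a 64-nt exon (80.4 ± 6.77 to 64.2 ± 2.15%; SD, n = 3 each). Their adjusted p-values in limma were 0.00244, 0.0227, 0.0222 and 0.00123. Among the exons of this paragraph, TRM20, UBA2B and BGLU9 passed without any single library. In all 40 exons the groups did not overlap, as in 176 of all 726 with ABA. The absolute difference ran from 3.47 to 32.7 points with a median of 14.7. In either treatment, a lack of overlap comes from the same reads as the test, so it is no separate support. It was not counted over all events.

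Averaging the treatments gave 57 exons that passed in neither alone. The largest of these was a 94-nt exon 3′ of the coding sequence of SMB, a gene of the SmB core protein of spliceosomal particles. It was at 53.7, 45.2 and 66.1% in WT mock and 94.3, 86.2 and 71.9% in sr34a-1 mock, and at 42.7, 60.1 and 66.0% and 100, 90.2 and 68.4% with ABA (averaged adjusted p 0.0115 in limma), on 21 to 71 reads per library. The groups did not overlap in either treatment, and the call was lost without the first sr34a-1 mock library. Rises were also found for a poison exon of 88 nt in AT5G15070 (by 19.5 points), a 44-nt exon in AT3G23255, a gene of tRNA modification (17.6), a 46-nt exon in AT1G07119 (16.7) and a 77-nt poison exon in the protein kinase gene AT3G06630 (16.1). A 50-nt exon of AT2G14285, a gene of the small nuclear ribonucleoprotein family, fell by 14.3 points and a 193-nt poison exon of FOLB3, an enzyme of folate synthesis that had also passed with ABA, by 13.2 points. Adjusted p-values of the averaged differences in limma, in the order AT5G15070, AT3G23255, AT1G07119, AT3G06630, AT2G14285 and FOLB3, were 0.00293, 0.0325, 0.00576, 0.0234, 0.00144 and 0.000866. The calls of AT3G23255 and AT3G06630 were lost without some of the libraries. Small changes passed too: 39 of the 104 differed by 10 points or more, and the median was 7.08.

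Exons with more reads passed more often. In the averaged comparison, 59 of 224 exons (26.3%) with more than 200 reads in every library passed, 36 of 330 (10.9%) with a lowest value of 50 to 200 reads, and 9 of 172 (5.23%) with fewer than 50. By inclusion, 32 of 134 exons with a mean PSI of 20 to 80% passed (23.9%), against 26 of 217 under 20% and 46 of 375 over 80%. By position, 78 of 515 exons between the coding ends passed (39 higher, 39 lower), 13 of 122 exons 5′ of the coding sequence (11 higher, 2 lower) and 5 of 15 exons 3′ of it. Of the 66 exons of at most 30 nt, 7 passed, 6 of them higher, among them a 19-nt exon of AT1G68580 that rose by 11.4 points (averaged adjusted p 2.47e-05 in limma). The purine motif GAAGAA, of the kind SR proteins bind, was on the sense strand of 65 exons (8.95%) and of 7.97% of frame-keeping exons, and 7 of those 65 (10.8%) passed. The shares of short exons (10.6%) and of motif exons lay below the 14.3% of all 726, and these differences were not tested.

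Early-stop forms changed in both directions. Of the 358 exons with an early stop in the altered form, 52 passed the averaged genotype comparison, 31 of 224 (13.8%) where removal gives the stop and 21 of 134 (15.7%) where addition does, beside 14.3% of all 726. In 29 of the 52 the early-stop form was the more frequent in sr34a-1, and in 23 the less frequent. Over all 358, the median change of the early-stop form was -0.26 PSI points, and 46.6% changed towards it. In mock, the form was more frequent in 6 and less frequent in 4 of the called exons, with a median over all 358 of -0.07 points and 49.2% changed towards it. With ABA it was more frequent in 6 and less frequent in 12, with a median of 0.25 points and 52.8%. The altered form was the one with the exon in 134 and the one without it in 224 of these exons.

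The genes with frame-shifting exons were then examined for total RNA. Of 649 genes that could be tested, 228 (35.1%) differed between genotypes averaged over treatments, 157 higher and 71 lower in sr34a-1 (edgeR's quasi-likelihood test, adjusted p under 0.05), beside 33.9% of all 21256 genes. Among the 104 exons past the threshold, 44 lay in such a gene, 27 with higher and 17 with lower RNA. Of the 29 exons whose early-stop form had become more frequent, the gene was higher in 6 cases and lower in 9. Of the 23 whose early-stop form had become less frequent, it was higher in 9 and lower in 1. In the others the gene did not pass, and this split was not tested. Falling exons whose addition brings an early stop, in genes with higher RNA, included those of SR34, ATSRL1, with a 112-nt exon, and RH46, a DEAD-box helicase, whose 104-nt exon fell by 8.62 points while its RNA rose by 0.23 (log2; adjusted p 0.000171 in limma and 0.00331 in edgeR). The case of a less frequent early-stop form with lower RNA was FOLB3. ATSRL1 and RH46 were chosen after their values were seen. The 6 cases in which both the early-stop form and the RNA were higher are not named. Reads of the gene and of its exon come from the same libraries, and a steady-state level does not measure decay.

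Splicing factors were examined as a list of 20 SR and SR-like genes, of which 6 carry 7 of the exons. Of these, 2 exons fell in each treatment, those of SR34 and SR34A described above, and 0 rose. The other 5 did not pass in any comparison. Those were a 161-nt poison exon of SCL30A at a mean of 17.5%, a 449-nt poison exon of SCL30 at 4.87%, exons of 67 and 257 nt in RS40 at 5.49 and 14.4%, and a 326-nt poison exon of RS41 at 5.33%. RS41 was at 4.08 ± 0.334% in WT mock and 5.83 ± 0.652% in sr34a-1 mock, and at 4.76 ± 0.978 and 6.64 ± 0.841% with ABA (SD, n = 3 each; averaged adjusted p 0.145 in limma). SCL30A was at 16.4 ± 2.69 and 20.9 ± 2.55% in mock and 14.9 ± 1.66 and 17.9 ± 1.72% with ABA (SD, n = 3 each; averaged adjusted p 0.146 in limma). In the list, the 2 falls are of 7 exons (28.6%), and 1 of them is in the mutated gene. In the averaged comparison, 14.3% of all 726 exons and 2.19% of all events passed in either direction. Whether the list differs from the 726 exons was not tested.

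Other lists held few of the exons. Of 16 genes of hnRNP-like and core splice-site factors, PTB2 had a 58-nt poison exon at 12.01% and U2AF65B, the large subunit of the factor that reads the 3′ splice site, had exons of 38 and 101 nt at 23.3 and 87.0%, and 0 of the 3 passed. Of 13 circadian clock genes, PRR7 had a 47-nt exon at 12.4%, ELF3 a 35-nt exon at 18.3% and JMJD5 a 55-nt exon at 2.03%, and again 0 passed. The 9 genes of NMD and the exon junction complex and the 28 genes of ABA signalling held 0 of the exons, so ABA's receptors, phosphatases and kinases cannot be described by them.

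In the averaged comparison, 4 exons of PRP39, AFC2 and RRC1 passed. PRP39, a gene of the U1 particle, had a 92-nt poison exon that rose by 3.20 points and a 101-nt exon that fell by 3.71 (adjusted p 0.0207 and 0.029 in limma). AFC2, a kinase that phosphorylates SR proteins, had a 190-nt exon that fell from 73.5 to 62.8% in mock and from 71.2 to 58.9% with ABA (adjusted p 0.00652). RRC1, an SR-like gene, had a 46-nt exon that rose by 6.42 points (adjusted p 0.0176). These 3 genes were picked after their values were seen. A 44-nt exon of PRP39 and a 49-nt exon of AFC2 did not pass, nor did exons of 115 and 49 nt in AFC1, a related kinase gene. In 5 genes, PRP39, AT2G06025, AT2G14285, OTLD1 and AT4G02120, more than 1 frame-shifting exon passed, and 62 genes had more than 1.

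ABA was compared with mock in each genotype to ask which exons respond to the hormone within 2 h. Few did. In WT, 2 exons (0.275%) passed, both higher, beside 0.0179% of all events. An unadjusted p under 0.05 in limma was found there for 83 exons (11.4%), beside 5.77% of all events. In sr34a-1, 2 passed, 1 higher and 1 lower, beside 0.0286%. Here 93 exons (12.8%) had an unadjusted p under 0.05, beside 6.19% of all events. Averaged over genotypes, 5 passed (0.689%), 4 higher and 1 lower, beside 0.075%. The same libraries showed ABA differences in the RNA level of 276 of the 649 genes (42.5%), 155 higher and 121 lower, beside 51.2% of all genes tested.

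BGLU9 was the largest ABA rise. Its 64-nt exon was at 68.1, 59.7 and 66.8% in WT mock and 81.1, 86.8 and 73.3% in WT ABA (adjusted p 0.026 in limma). In sr34a-1 it was at 51.6, 52.8 and 56.3% in mock and 63.0, 62.9 and 66.7% with ABA, which did not pass (adjusted p 0.667). The groups did not overlap in either genotype, and the averaged rise of 13.1 points passed (adjusted p 0.0025). The averaged differences were thus lower in sr34a-1 and higher with ABA. Leaving out any WT library other than the third with ABA ended the WT call (largest adjusted p 0.295). Skipping it leaves 49 of 506 residues.

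The 58-nt exon of LPP3, a phosphatase of lipid signals, was the 1 that fell in the comparison averaged over genotypes. It was at 64.8, 67.4 and 65.7% in WT mock and 53.8, 50.8 and 43.6% in WT ABA, and at 60.9, 63.1 and 62.1% in sr34a-1 mock and 57.9, 39.5 and 41.9% in sr34a-1 ABA. Neither pair of groups overlapped, and the averaged fall was 16.1 points (adjusted p 0.00166 in limma). AT3G53270 encodes a subunit of the complex that activates transcription of small nuclear RNAs. Its 101-nt exon rose from 82.5 ± 2.47 to 92.5 ± 0.984% in WT and from 87.5 ± 4.05 to 97.5 ± 2.74% in sr34a-1 (SD, n = 3 each, averaged adjusted p 0.00572 in limma). AAE17, an acyl-activating enzyme gene, rose by 7.26 points in WT at a 95-nt exon (adjusted p 0.026), and AT3G24255 by 6.91 points averaged over genotypes at a 68-nt exon (adjusted p 0.0185). A 98-nt exon of AT1G13820, an alpha/beta-hydrolase gene, fell by 4.07 points with ABA in sr34a-1 (adjusted p 0.0191 in limma), from 99.1, 99.8 and 99.3% to 91.0, 98.2 and 96.9%. The WT call of AAE17 and the sr34a-1 calls of AT3G53270 and AT1G13820 were each lost without any of at least 3 single libraries, as were the averaged calls of AAE17 and AT3G24255.

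The counts depend on how the spread was estimated. The trend ties an event's variance to the sampling variance expected from its inclusion and exclusion reads. Without it, 2, 0 and 12 exons passed in the mock, ABA and averaged genotype comparisons and 0 in each ABA comparison. Leaving out single libraries gave 12 to 19, 29 to 36 and 79 to 95 exons in the genotype comparisons. The mock count was lowest without the second WT mock library, at 12, and without the third sr34a-1 mock library it was 14.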

How the data were processed

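RNA of whole germinated seeds was sequenced from polyadenylated transcripts, per the labels' protocols. The splicing table deposited by the authors gives PSI as a percent of inclusion reads for each event, with the read numbers in a quality field, and the gene table deposited by the authors gives unnormalized read counts per gene and RPKM values corrected for mappable length (cRPKM), per the file headers. The build is TAIR 10, per the submitters' processing notes. The aligner and the strand setting are not given in the sources used here. Recomputing the percent from the listed reads moved no value by more than 0.05 points.

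Inclusion and exclusion reads of 28000 events with at least 10 reads in all 12 libraries and a mean PSI from 2 to 98 were tested with limma 3.58.1 in R 4.3.3 on their log2 ratio, with 0.5 reads added to each. Group means of all 12 libraries shared 1 spread, and the variance trend followed the sampling variance. PSI differences are differences of group means in points. Gene counts were tested with edgeR 4.0.16 (quasi-likelihood, TMM factors, default filter on low counts), which kept 21256 of 32389 genes with counts. The cRPKM values served only to describe levels and are not printed. Both fits were tested on simulated data. Exon positions are as deposited, and sequences, coding ends and reading frames come from the TAIR10.1 annotation of RefSeq. Gene names are the deposited ones, or RefSeq symbols where there is none (AtLIG6, ATPTB2 and APRR7 are written LIG6, PTB2 and PRR7). Frames were read by changing 1 exon of 1 transcript. For 242 exons the table lists more than 1 pair of ends, and the listed length decides membership. Genes that overlap others or have near-identical copies have uncertain values.

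Named exons are, in each single comparison and in the averaged ABA comparison, the 8 largest rises and 8 largest falls among those past the threshold. In the averaged genotype comparison they are the 12 largest of each, and all exons in genes of the fixed lists are named too. The other exons named (AT4G34265, AT3G22430, HEXO1, AT1G68580, ATSRL1, RH46, PRP39, AFC1, AFC2, RRC1, AT3G01850 and RF4) were chosen after their values were seen. The exons and lists were chosen with earlier results of these data known. Near the limits, the lowest mean PSI inside was 2.01% (AT1G06590) and the next outside 1.96% (AT2G33390). At the upper limit AT3G28130 was inside at 97.99% and AT5G18245 outside at 98.01%, and at the read limit AT1G11170 was inside with 10 reads and AT1G60930 outside with 9. Alternatives were another pseudocount, read minimum, PSI limit, event set, variance model and scale, a range rule, the replicate number as a block, single libraries left out, and for genes RLE size factors, no filter and DESeq2 1.42.0. Same-numbered libraries of different groups hardly deviated together on average (mean r 0.011 over the exons, from -0.061 to 0.101), so the numbers were not used to pair them. The third ABA libraries of both genotypes did lie on the same side of the second principal component. Libraries of a group were not copies of each other (chi-square per degree of freedom 4.23 to 19.4).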

Additional observations from a re-analysis of the deposited data

How the results depend on the processing

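All counts are exons past the threshold in the order mock, ABA and averaged genotype comparison (22, 40 and 104), then ABA in WT, in sr34a-1 and averaged (2, 2 and 5). With exon events alone in the fit, 38 and 63 passed in the genotype comparisons and 0 in the ABA comparison of sr34a-1. With the 6 compared libraries alone, 44 passed in mock and 0 in that ABA comparison. With PSI itself as the scale, 8, 12 and 39 and then 0, 0 and 0 passed, and without the variance trend 2, 0 and 12 and then 0, 0 and 0. Without the limit on mean PSI, 25 passed in the ABA genotype comparison and 7, 9 and 17 in the ABA comparisons. With a pseudocount of 0.1, 0 and 1 passed in the ABA comparisons of WT and sr34a-1. The range rule, a difference of at least 15 points with a gap of at least 5, gave 18 in mock and 26 with ABA between genotypes. It gave 4 for ABA in WT and 2 for ABA in sr34a-1. Of these, 7, 15, 1 and 0 were also past the main threshold, so the lists differ in many exons. Among all events, 0.571%, 0.586%, 0.261% and 0.282% met the rule. The cause of these shifts was not tested. Leaving out single libraries gave 12 to 19, 29 to 36, 79 to 95, 0 to 2, 0 to 4, 3 to 8 and, for the interaction, 0 to 0 exons, and 183 to 229 and 252 to 267 genes for genotype and ABA. For ABA in WT, 0 passed without any 1 WT mock library or the second WT ABA library and 1 without the first WT ABA library. For ABA in sr34a-1, 0 passed without sr34a-1 mock library 2 or 3, 1 without the first sr34a-1 mock or second sr34a-1 ABA library and 4 without the third sr34a-1 ABA library. For ABA averaged, 3 passed without WT mock library 2 or 3 or sr34a-1 mock library 1 and 8 without the first sr34a-1 ABA library. With the replicate number as a block, 26, 45, 106, 2, 2, 6 and 0 exons and 274 and 311 genes passed. The main fits did not pair libraries by number. Of 103 named results, 70 were past the threshold. Of these, 60 lost it without the variance trend and 36 on the PSI scale. Over all alternatives 0 results reversed and 236 repeats lost the threshold, while the 1519 that kept their side include results that never passed. CPSF73-I with ABA and HSFA2, AT1G69020 and UBA1A in mock were among those lost when a single library was left out (largest adjusted p 0.173, 0.0837, 0.061 and 0.0991 in limma). AT5G05550 and SR34 passed in both treatments without any single library. Of 172 exons with under 50 reads in a library, 9 (5.23%) passed the averaged genotype comparison, beside 14.3% of all 726. Whether depth accounts for this was not tested.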
